A study of Homo sapiens with 12 samples.

Results

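The 45 genes described here encode the machinery of mitosis: kinases, cyclins, checkpoint and anaphase proteins, the centromere and kinetochore, spindle motors and spindle assembly factors, and the proteins of cytokinesis. They were taken as a fixed list of gene names, and each was read through 1 probe set, the one that names that gene alone and has the highest mean over the 12 arrays. All 45 had such a probe set, out of 19775 genes that could be named from a single-gene probe set, and the arrays measured steady-state RNA as log2 signal.

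Mitotic genes are transcribed late in the cell cycle. In resting cells the DREAM complex holds many of them silent, and in cycling cells MYBL2 and FOXM1 switch them on, so their summed RNA is a common readout of how many cells of a culture are dividing. During mitosis cyclin B and CDK1 drive entry, the kinetochore ties chromosomes to the spindle, the checkpoint holds back the anaphase-promoting complex until all are attached, and the central spindle then directs cytokinesis. In bulk RNA, fewer cycling cells and less of these RNAs per cell cannot be told apart.

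The study compared parental SaOS-2, a human osteosarcoma line, with stable transfectants made from it by calcium phosphate transfection of CD99 and neomycin selection, labelled Sa/CD99, before and during culture in osteogenic medium. Each of the 6 groups had 2 arrays: replicates 1 and 2 of parental SaOS-2, labelled as not transfected, at days 0, 7 and 14, and the transfectant clones wt22 and wt36, 1 array each, at the same days. A transfectant group is therefore 2 selected clones, and nothing in the labels ties the arrays of a group to independent cultures. The p-values therefore reflect the spread among these arrays alone, which may be technical. CD99 itself did not follow the label in a simple way: the brighter of its probe sets read 12.29 to 12.66 in SaOS-2 and 12.32 to 12.74 in Sa/CD99, and the other read 11.26 to 11.88 in SaOS-2 but 6.67 to 8.88 in Sa/CD99, which goes against the label, so Sa/CD99 and every direction between the lines below refer to the arrays labelled Sa/CD99. The study also checked CD99 by real-time PCR in the parental cells and both clones, and those values were not used here.

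One feature of the arrays bears on every comparison with day 7. The 12 probe sets for the bacterial poly-A transcripts that can be added to RNA before labelling had a mean log2 signal of 3.72 to 3.88 on the 4 day 7 arrays and of 7.503 to 8.367 on the other 8, while the 9 hybridisation control probe sets averaged 10.2 to 10.5 on all 12. Why these controls differ was not tested, and day 7 cannot be told apart from this difference in the labelling controls. Comparisons of day 14 with day 0 and comparisons of the lines within a day do not cross it. Of the lineage markers RUNX2 read 11.5 to 12.3 and COL1A1 12.6 to 13.3, SPP1 was above a signal of 100 on 0 arrays, and the haematopoietic and endothelial markers PTPRC, CD3E, ITGAM, PECAM1, CDH5 and VWF were above it on 0 arrays as well, as was the epithelial marker CDH1, while the epithelial markers EPCAM and KRT18 were above it on 12.

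Many promoters of mitotic genes carry a CHR element, the binding site of the DREAM and MYBL2 complexes, close to the transcription start, with CCAAT boxes upstream of it. The letters TTTGAA or TTTAAA (CHR) and CCAAT were searched on both strands in the RefSeq windows from 250 bases before to 50 bases after each start (GRCh38.p14), which 38 of the 45 genes had. CHR letters were found for 34 of the 38 genes (89.5%) against 27.9% of the 27305 genes with a window, and CCAAT for 32 (84.2%) against 39.7%. Both were found for 27 (71.1%) against 11.2%. In a list of other mitotic genes 35 of 59 (59.3%) had CHR letters, 39 (66.1%) had CCAAT and 24 (40.7%) had both. Among the DNA replication and S phase genes used for comparison below, 9 of 41 had CHR letters and 24 (58.5%) had CCAAT. AURKB, BUB1, CCNA2 and SPC24 had no CHR letters in the window, and ANLN, BUB1B, CENPE, KIF2C, NDC80 and NUF2 had no CCAAT. A match is a description of letters and not a site or a cause.

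The 120 bases before the start are shown for 8 members whose values recur below and for AURKB, which has neither motif in this stretch. Each runs 5′ to 3′ on the gene's own strand, with the CHR letters and CCAAT, or their reverse complements TTCAAA and ATTGG, in capitals. CCNB1 and CCNB2 show the usual spacing of the motifs, CDC20, PLK1 and KIF20A had their lowest arrays at day 7, and ASPM and HMMR had theirs at day 14.
CCNB1: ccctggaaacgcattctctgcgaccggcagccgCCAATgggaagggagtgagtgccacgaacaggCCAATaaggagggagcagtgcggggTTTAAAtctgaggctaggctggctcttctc
CCNB2: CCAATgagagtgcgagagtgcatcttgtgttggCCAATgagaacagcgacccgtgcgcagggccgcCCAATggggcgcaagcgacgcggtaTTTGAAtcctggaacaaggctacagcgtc
CDC20: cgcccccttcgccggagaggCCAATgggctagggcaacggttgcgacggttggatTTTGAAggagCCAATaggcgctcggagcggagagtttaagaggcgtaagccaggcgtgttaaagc
PLK1: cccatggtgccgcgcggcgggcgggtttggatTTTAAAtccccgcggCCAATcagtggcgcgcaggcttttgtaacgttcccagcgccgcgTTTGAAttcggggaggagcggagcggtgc
KIF20A: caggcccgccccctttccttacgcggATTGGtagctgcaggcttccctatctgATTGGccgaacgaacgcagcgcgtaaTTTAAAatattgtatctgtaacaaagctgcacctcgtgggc
CENPE: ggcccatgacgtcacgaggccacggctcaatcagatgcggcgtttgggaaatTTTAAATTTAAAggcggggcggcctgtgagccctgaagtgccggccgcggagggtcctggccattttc
ASPM: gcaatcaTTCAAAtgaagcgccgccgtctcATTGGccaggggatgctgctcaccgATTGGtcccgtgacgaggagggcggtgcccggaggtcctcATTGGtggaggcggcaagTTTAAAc
HMMR: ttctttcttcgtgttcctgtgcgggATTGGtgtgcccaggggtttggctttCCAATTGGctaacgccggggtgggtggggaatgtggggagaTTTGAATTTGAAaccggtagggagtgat
AURKB: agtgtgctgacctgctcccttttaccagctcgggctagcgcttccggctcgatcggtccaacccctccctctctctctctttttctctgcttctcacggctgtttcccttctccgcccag
They lie at chr5:69167030-69167149, chr15:59105026-59105145, chr1:43358861-43358980, chr16:23678769-23678888 and chr5:138178992-138179111 on the plus strand, chr4:103198344-103198463 and chr1:197146670-197146789 on the minus strand, chr5:163460512-163460631 on the plus strand and chr17:8210250-8210369 on the minus strand. In CCNB1, CCNB2 and KIF20A the CHR letters follow the CCAAT boxes on the way to the start, and PLK1 has 2 CHR matches with 1 CCAAT between them. HMMR and CENPE carry 2 CHR matches in direct succession, and CENPE has no CCAAT.

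**Figure D1:**
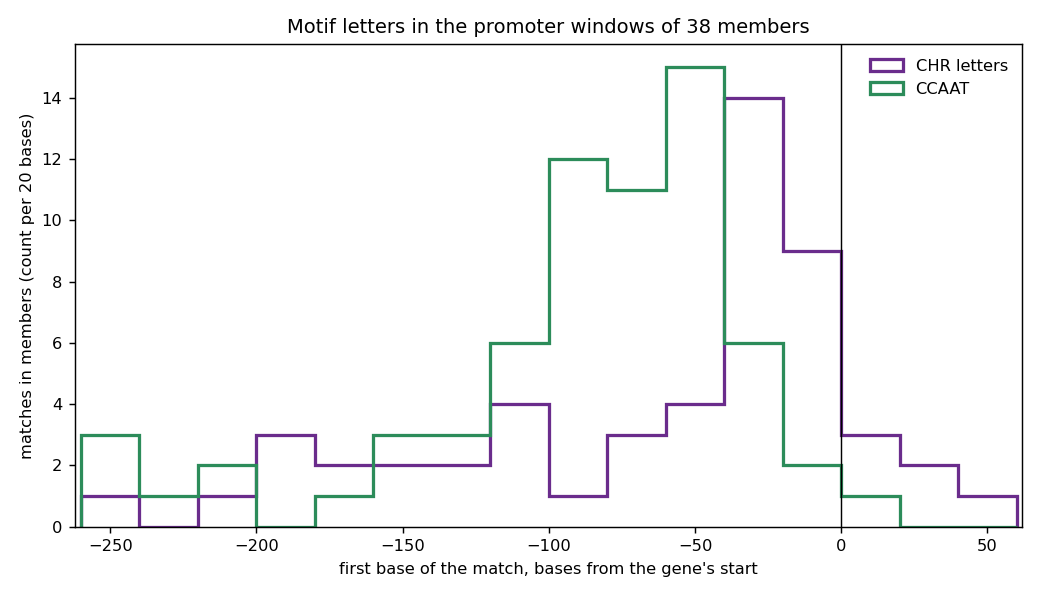
Positions of CHR letters (TTTGAA or TTTAAA) and CCAAT in the promoter windows of the 38 members that have one, as the number of matches per 20 bases (y) against the distance of the first base of the match from the start (x, in bases, 1 window per gene, the start farthest upstream). Of the 52 CHR matches, 27 (51.9%) begin within 60 bases before the start, against 18.4% of such matches over all genes, and of the 66 CCAAT matches, 44 (66.7%) begin 120 to 41 bases before it, against 41.2%; both stretches were chosen after the positions were seen.

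Between the lines, no member passed the test on any day. A member was called when limma's Benjamini-Hochberg adjusted p, over the 12894 probe sets tested, was at most 0.05 and the difference was at least 1.5-fold. Each probe set had 1 estimate of spread for all 6 groups, so its standard error between days is the same in both lines. Over all tested probe sets the 2 arrays of a day differed with an SD of 0.39 to 0.42 (clones) and 0.12 to 0.14 (SaOS-2). The p-values and calls within Sa/CD99 therefore do not measure the spread of the clones alone. Of the 43 members tested, 0 were called at day 0, where 1.47% of all tested probe sets were, 0 at day 7, where 1.81% were, and 0 at day 14, where 1.46% were. At an unadjusted limma p below 0.05 the counts were 1, 7 and 4 of 43, with the share of all tested probe sets at that limit not counted. The smallest adjusted p values were 0.229, 0.0958 and 0.0711. The median difference over the 45 genes, as log2 of Sa/CD99 minus SaOS-2, was -0.03 at day 0, -0.02 at day 7 and 0.01 at day 14, beside medians of -0.01, -0.03 and -0.01 over all tested probe sets. The 95% interval of the difference lay inside 1.5-fold in both directions for 37 of the 45 genes at day 0, 29 at day 7 and 31 at day 14, so a larger difference between the lines is outside the interval for those genes and inside it for the rest.

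**Figure D2:**
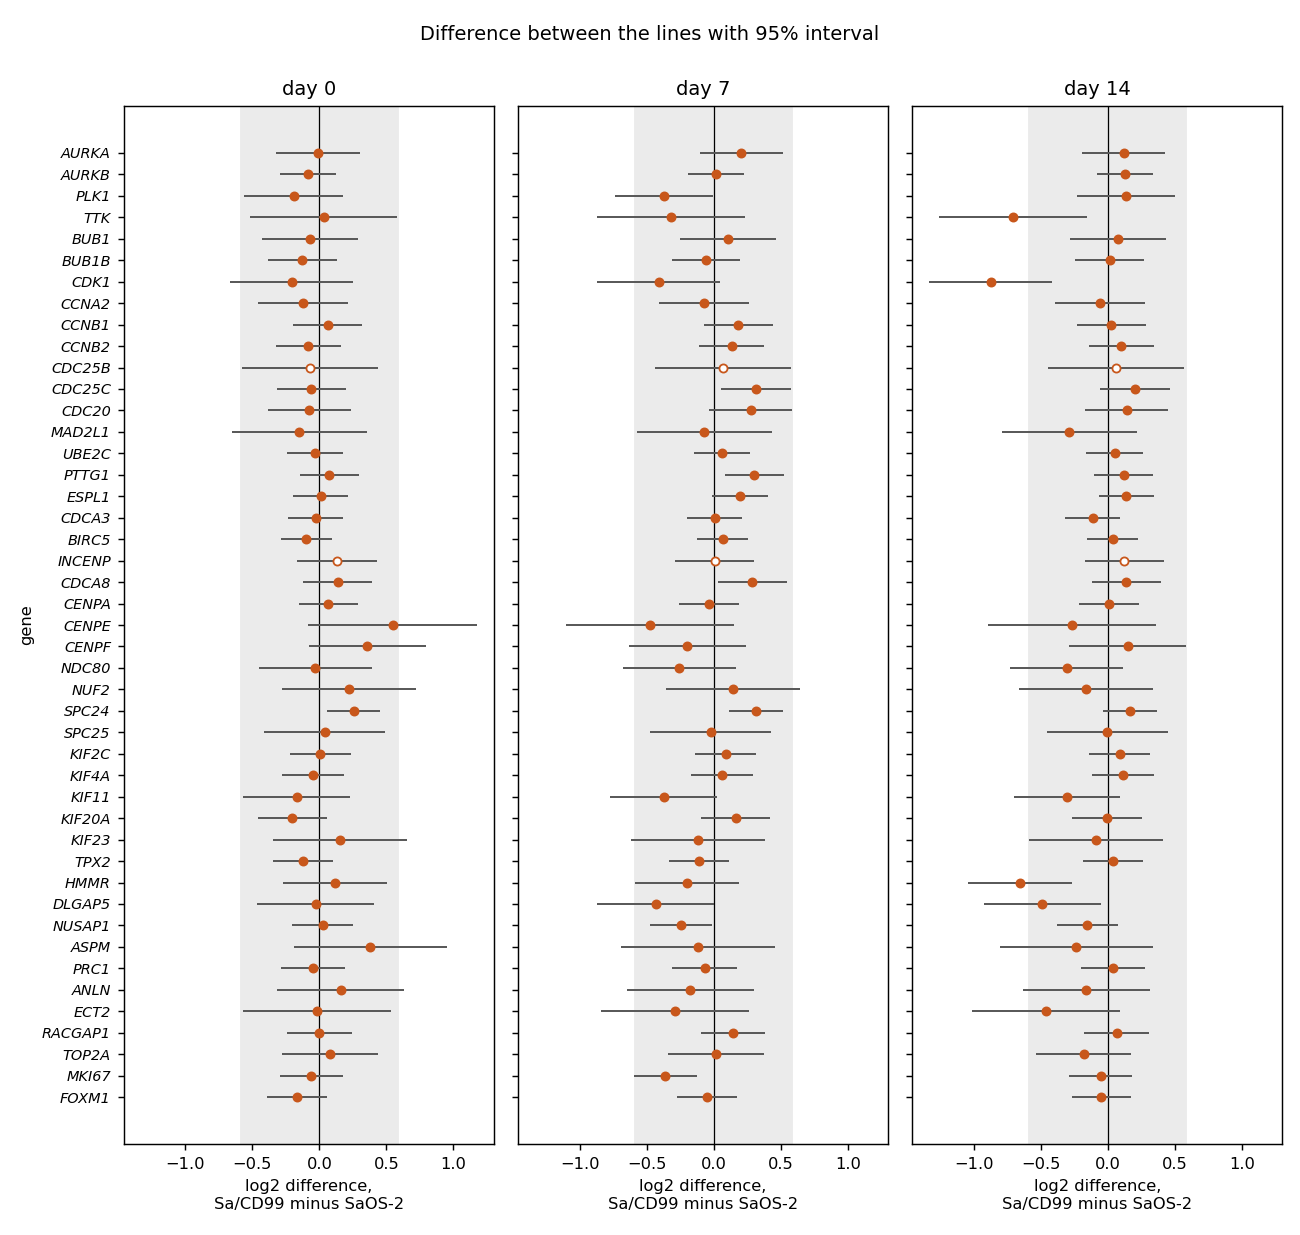
Difference between the lines for each of the 45 genes at days 0, 7 and 14 (x, log2 of Sa/CD99 minus SaOS-2; points, limma estimates from 2 arrays per group; bars, 95% intervals; grey, the range within 1.5-fold; open points, the 2 genes that failed a filter). Points range from -0.21 to 0.55 (CENPE) at day 0 and from -0.47 (CENPE) to 0.32 at day 7. At day 14 CDK1, TTK and HMMR lie at -0.88, -0.71 and -0.65.

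Of the differences between the lines, those at day 14 were the widest, and the widest of these were in CDK1, TTK and HMMR. CDK1, the kinase that drives entry into mitosis, read 10.83 and 10.79 at day 0, 10.91 and 11.02 at day 7, and 10.12 and 10.37 at day 14 on the 2 arrays of SaOS-2. On those of clones wt22 and wt36, in that order here and below, it read 10.94 and 10.27 at day 0, 10.47 and 10.64 at day 7, and 9.21 and 9.52 at day 14. The lines overlapped at day 0 and did not at days 7 and 14, when both clones were below both parental arrays. At day 14 the difference was 1.83-fold with log2 -0.88 (95% interval -1.34 to -0.42) and an adjusted p of 0.0711, which did not pass. Over 20 fits, the main fit included, the log2 difference ranged from -1.03 to -0.72, and CDK1 was called without either Sa/CD99 day 0 array, with the difference still -0.88. HMMR, a microtubule-binding protein of the spindle, differed by log2 -0.65 (95% interval -1.04 to -0.26) with an adjusted p of 0.101. Over 20 fits, the main fit included, its log2 difference ranged from -0.91 to -0.39, and HMMR was called without the day 14 array of clone wt36 (log2 -0.91). The difference for TTK, the checkpoint kinase MPS1, was log2 -0.71 (95% interval -1.26 to -0.16) with an adjusted p of 0.189. At day 7 PLK1 was called without the day 7 array of clone wt22 (log2 -0.64, adjusted p = 0.0351), and its value on all arrays was log2 -0.37 (95% interval -0.74 to -0.00). At the other end, RACGAP1, a regulator of the central spindle, differed least at day 0 with log2 -0.00 (95% interval -0.24 to 0.24), CDCA3, a mitotic entry factor, at day 7 with log2 0.01 (95% interval -0.20 to 0.21), and SPC25, a subunit of the NDC80 complex, at day 14 with log2 -0.00 (95% interval -0.46 to 0.45).

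No member passed the test of whether its change over days differed between the lines. The interaction of line and day was called for 0 of 43 members between days 0 and 7, where 0% of all tested probe sets were called, and for 0 of 43 between days 0 and 14, where 0.0155% were. The unadjusted limma p was below 0.05 for 3 and 2 members, again without a share over all tested probe sets. The widest estimates, as the change in Sa/CD99 minus the change in SaOS-2, were log2 -1.02 (95% interval -1.91 to -0.13) for CENPE at day 7 and log2 -0.82 (95% interval -1.71 to 0.07) for CENPE and log2 -0.77 (95% interval -1.32 to -0.22) for HMMR at day 14. The smallest were those of TPX2, which targets Aurora A to the spindle, at day 7 (0.02) and of CDCA8, the borealin subunit of the chromosomal passenger complex, at day 14 (-0.00). These intervals reach past 1.5-fold for 24 of the 45 genes at day 7 and 21 at day 14, and for those genes a difference of that size lies within the interval.

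**Figure D3:**
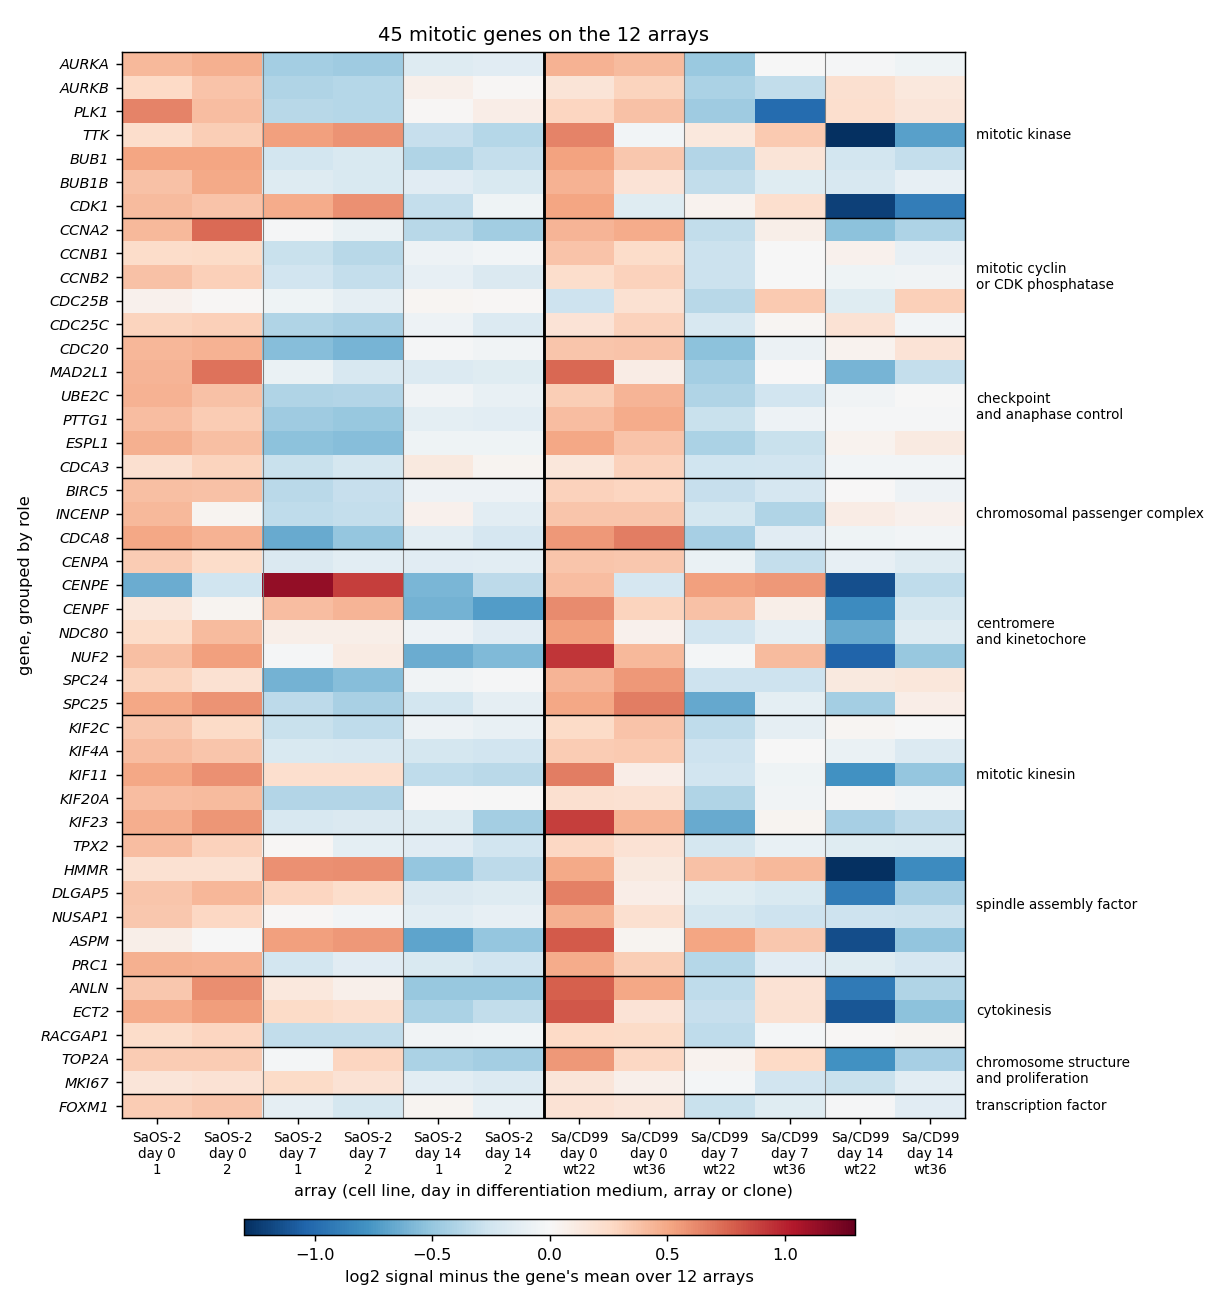
Log2 signal of the 45 genes (rows, grouped by role) on the 12 arrays (columns, SaOS-2 left of the thick line and clones wt22 and wt36 right of it), coloured by the difference from the gene's mean over the arrays. Day 0 columns are mostly red, day 7 columns are blue for most genes and red for CENPE, HMMR and ASPM, and day 14 columns of clone wt22 hold the deepest blue, in TTK, CDK1, HMMR, CENPE, ASPM, ECT2 and NUF2.

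In differentiation medium most mitotic genes were lower than at day 0 in both lines, at day 14 and also on the day 7 arrays. At day 7 the time in medium and the difference in the labelling controls cannot be told apart, which holds for every day 7 value below. From day 0 to day 7 in SaOS-2, 21 of the 43 members tested fell (48.8%), where 8.63% of all tested probe sets were called lower, and 1 rose, CENPE, where 12.8% were called higher. The median over the 45 genes was -0.57 on the log2 scale, beside 0.00 over all tested probe sets. Among the Sa/CD99 arrays 15 of 43 fell (34.9%), where 7.78% of all tested probe sets did, and 0 rose, where 10.4% did, with a median of -0.54 beside -0.01. Fits on the 4 arrays of a comparison alone gave 21 lower calls in SaOS-2 and 1 in Sa/CD99, and without the day 7 array of clone wt22 the Sa/CD99 count was 9. By role the called genes were 5 of 7 kinases, 3 of 4 tested cyclins and CDK phosphatases, 5 of 6 checkpoint and anaphase genes, both tested members of the passenger complex, 2 of 7 centromere and kinetochore genes, 3 of 5 kinesins, 1 of 6 spindle assembly factors and 0 of 3 cytokinesis genes in SaOS-2. Of the genes called in the 2 lines 13 were shared, which is 61.9% of the SaOS-2 list and 86.7% of the Sa/CD99 list. How far such lists overlap over all tested probe sets was not counted, nor was the share called in the fits on fewer arrays.

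The anaphase genes and the passenger complex were low at day 7. CDC20, the activator of the anaphase-promoting complex, read 9.46 and 9.48 at day 0, 8.48 and 8.43 at day 7, and 9.01 and 8.99 at day 14 in SaOS-2. The clone arrays read 9.39 and 9.404 at day 0, 8.50 and 8.96 at day 7, and 9.08 and 9.21 at day 14. All 4 day 7 arrays lay below the other 8, and the day 14 arrays lay between those of day 7 and day 0. The day 7 level was 2.03-fold lower (log2 -1.02, SE 0.14, adjusted p = 0.000866) in SaOS-2 and 1.59-fold lower (log2 -0.67, SE 0.14, adjusted p = 0.00621) in Sa/CD99, the latter not called without the day 7 array of clone wt22 (log2 -0.44). CDCA8 read 10.35 and 10.30 at day 0, 9.19 and 9.34 at day 7, and 9.71 and 9.62 at day 14 in SaOS-2. Its values in Sa/CD99 were 10.41 and 10.51 at day 0, 9.41 and 9.70 at day 7, and 9.79 and 9.81 at day 14. Day 7 arrays of both lines were below day 0 arrays without overlap. The fall was 2.08-fold in SaOS-2 (log2 -1.06, SE 0.11, adjusted p = 0.000342) and 1.88-fold in Sa/CD99 (log2 -0.91, SE 0.11, adjusted p = 0.000619). ESPL1, the separase that cuts cohesin at anaphase, fell by the like amount, 1.96-fold and 1.72-fold, with adjusted p values of 0.000204 and 0.000424. Its inhibitor securin, PTTG1, read 12.47 and 12.40 at day 0, 11.61 and 11.58 at day 7, and 11.94 and 11.93 at day 14 in SaOS-2. In Sa/CD99 PTTG1 read 12.47 and 12.55 at day 0, 11.78 and 12.004 at day 7, and 12.05 and 12.06 at day 14. Here too all day 7 arrays were below all day 0 arrays, by 1.8-fold and 1.53-fold, the latter under the fold minimum without the day 0 array of wt36 or the day 7 array of wt22 (log2 -0.51 at the least). BIRC5, the survivin subunit of the passenger complex and the one with the highest signal, read 11.78 and 11.76 at day 0, 11.03 and 11.08 at day 7, and 11.31 and 11.32 at day 14 in SaOS-2 and was 1.64-fold lower at day 7, a call. The clone values were 11.68 and 11.66 at day 0, 11.08 and 11.17 at day 7, and 11.39 and 11.32 at day 14, a difference of -0.55 that did not reach 1.5-fold, while another tested probe set of BIRC5 was called lower there (-0.64). UBE2C, the ubiquitin-conjugating enzyme of the anaphase-promoting complex, fell 1.74-fold and 1.63-fold. INCENP, the scaffold of the passenger complex, failed the signal filter with 1 of 12 arrays above 100, and its untested differences were -0.55 and -0.67.

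The kinases PLK1, AURKA and AURKB fell by day 7 in both lines. PLK1, which acts from mitotic entry to cytokinesis, read 9.76 and 9.51 at day 0, 8.75 and 8.74 at day 7, and 9.12 and 9.20 at day 14 in SaOS-2. For the clones it read 9.39 and 9.49 at day 0, 8.65 and 8.11 at day 7, and 9.33 and 9.27 at day 14. Every day 7 array was below every day 14 array, and every day 14 array below every day 0 array. At day 7 PLK1 was 1.84-fold lower (log2 -0.88, SE 0.16, adjusted p = 0.00336) in SaOS-2 and 2.09-fold lower (log2 -1.06, SE 0.16, adjusted p = 0.00157) in Sa/CD99, and PLK1 was then 1.89-fold higher at day 14 than at day 7 in Sa/CD99 (log2 0.92, adjusted p = 0.00354). AURKA, the kinase of the spindle poles, read 10.98 and 11.02 at day 0, 10.12 and 10.10 at day 7, and 10.39 and 10.41 at day 14 in SaOS-2. Its clone values were 11.01 and 10.97 at day 0, 10.07 and 10.55 at day 7, and 10.54 and 10.50 at day 14. Day 0 arrays stood above all others, and day 7 and day 14 arrays overlapped. The day 7 call in Sa/CD99 was lost without the day 7 array of clone wt22 (log2 -0.43). AURKB, the kinase of the passenger complex, read 9.20 and 9.30 at day 0, 8.54 and 8.56 at day 7, and 9.001 and 8.95 at day 14 in SaOS-2. In the clones AURKB read 9.11 and 9.23 at day 0, 8.52 and 8.61 at day 7, and 9.14 and 9.07 at day 14. Its day 7 arrays were the lowest 4, and its Sa/CD99 call at day 7 was lost without the day 0 array of wt36 or the day 7 array of wt22 (log2 -0.54 at the least). By day 14 it differed from day 0 by -0.27 in SaOS-2 and -0.06 in Sa/CD99, neither called and the latter the smallest change among the tested members. BUB1B, the checkpoint protein BUBR1, read 10.81 and 10.92 at day 0, 10.26 and 10.23 at day 7, and 10.28 and 10.23 at day 14 in SaOS-2 and 10.87 and 10.61 at day 0, 10.11 and 10.26 at day 7, and 10.22 and 10.32 at day 14 in Sa/CD99. It fell 1.54-fold by day 7 in SaOS-2 and then moved by 0.01, the smallest second-week difference there.

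Not all members were lower at day 7. CENPE, the kinetochore motor that brings chromosomes to the metaphase plate, read 5.83 and 6.21 at day 0, 7.61 and 7.37 at day 7, and 5.88 and 6.13 at day 14 in SaOS-2. Clone values of CENPE were 6.88 and 6.26 at day 0, 7.001 and 7.04 at day 7, and 5.33 and 6.14 at day 14. The 4 day 7 arrays were the highest 4 of the 12. The rise was 2.78-fold in SaOS-2 (log2 1.48, SE 0.28, adjusted p = 0.00384) and log2 0.45 (95% interval -0.18 to 1.08) in Sa/CD99, not called. CENPE was above a signal of 100 on 5 arrays, 4 of them from day 7, so it entered the test through the group in which it was high. HMMR, ASPM, TTK, CENPF, CDK1 and MKI67 also had positive first-week differences in SaOS-2, from 0.04 for MKI67 to 0.51 for ASPM, none of them called through the probe set used. For CDK1 (0.15) the 2 other tested probe sets gave 0.44, not called, and 0.60, called higher. In Sa/CD99 the first-week difference was above 0 for 4 of 45 genes, CENPE (0.45), HMMR (0.09), CDC25B (0.02) and ASPM (0.02, the smallest there).

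**Figure D4:**
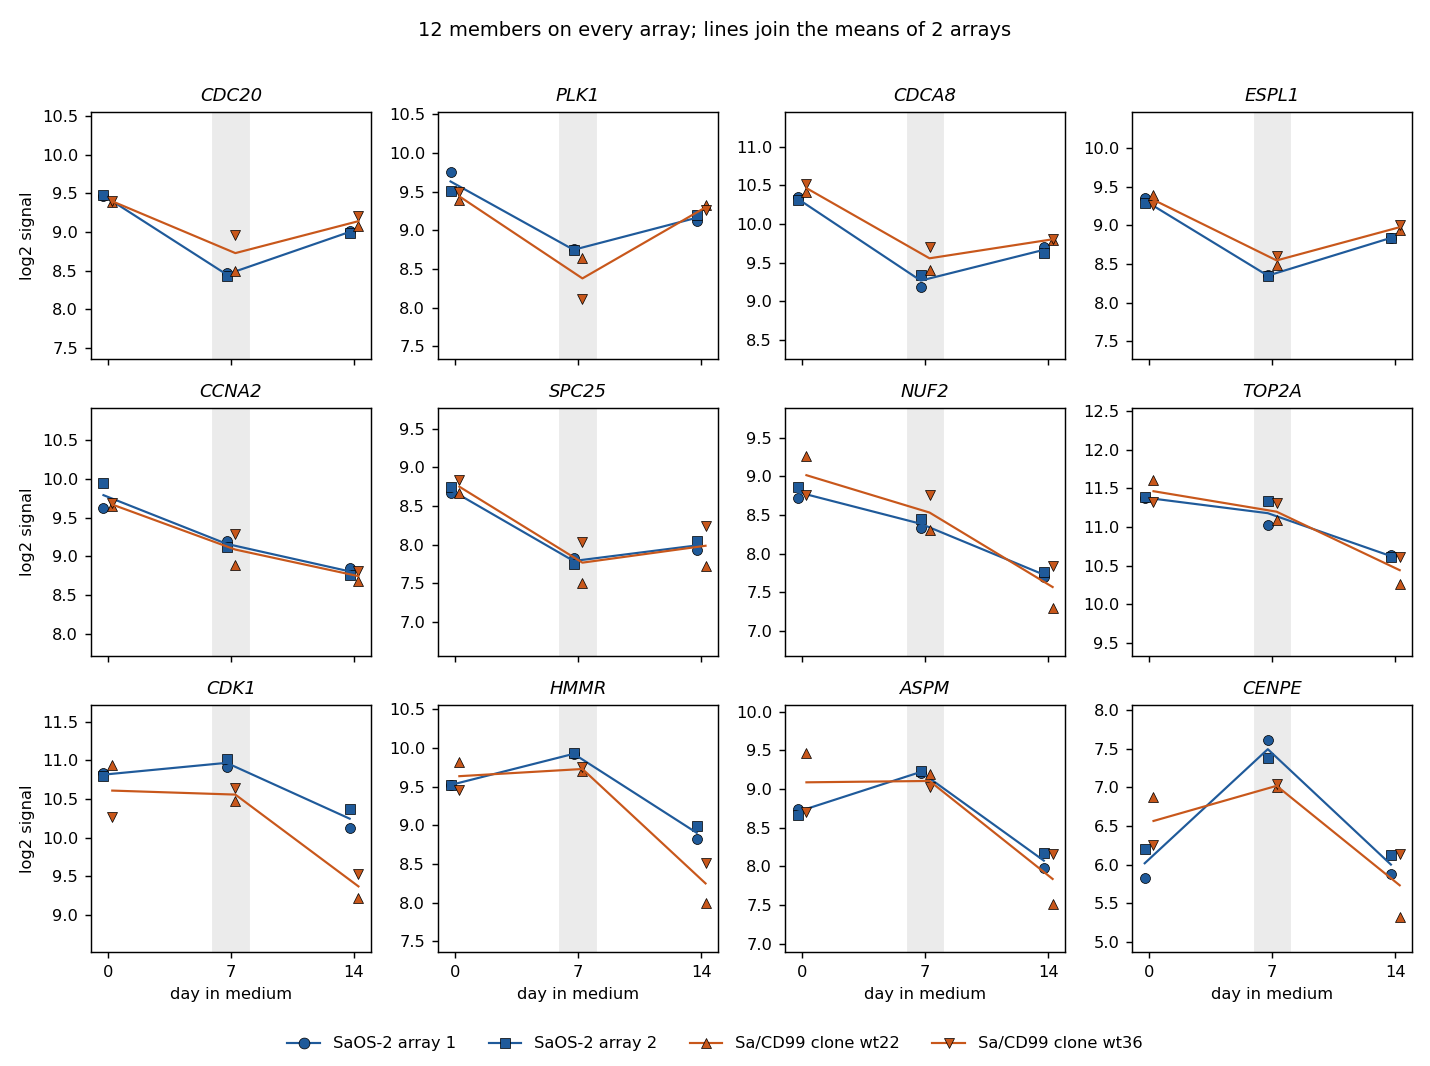
Log2 signal (y) of 12 members on every array against day in differentiation medium (x); circles and squares are the 2 SaOS-2 arrays, upward triangles clone wt22 and downward triangles clone wt36, lines join group means, every panel spans the same range of log2 units, and grey marks day 7. CDC20, PLK1, CDCA8 and ESPL1 are lowest at day 7, CCNA2 and NUF2 step down at each day, and CDK1, HMMR, ASPM and CENPE drop after day 7, with clone wt22 lowest at day 14.

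At day 14, a comparison that the labelling controls do not cross, the fall from day 0 held in both lines. In SaOS-2 17 of 43 members were lower (39.5%), where 8.86% of all tested probe sets were called lower, and 0 were higher, where 6.03% were. The differences of all 45 genes were below 0, with a median of -0.50 beside -0.11 over all tested probe sets, of which 58.4% were below 0. For Sa/CD99 21 of 43 were lower (48.8%), where 13.0% were, and 0 were higher, where 6.39% were, with 44 of 45 differences below 0 and a median of -0.47 beside -0.09. The lines shared 14 of these genes, 82.4% of the SaOS-2 list and 66.7% of the Sa/CD99 list. The overlap of the lines over all tested probe sets was not counted. Refitting without the day 7 arrays, which was decided after seeing the labelling controls, gave 16 lower in SaOS-2, all among the 17 and without HMMR, where 8.40% of all tested probe sets were lower, and 20 in Sa/CD99, all among the 21 and without CENPE, where 12.1% were. The SaOS-2 count depended on single arrays: it was 9 without day 0 replicate 1, 6 without day 0 replicate 2, 8 without day 14 replicate 1 and 6 without day 14 replicate 2, and on the 4 SaOS-2 arrays alone it was 19. Each of AURKA, MAD2L1, CENPF, SPC25, KIF23, HMMR, ECT2 and TOP2A lost its SaOS-2 call without any 1 of these 4 arrays, at adjusted p values of up to 0.18. The share of all tested probe sets called without 1 array, or on 4 arrays alone, was not counted. On the 4 Sa/CD99 arrays alone the Sa/CD99 count was 0. With 1 array left out of the full fit it was 15 to 21, with SPC25 lost without the day 0 array of clone wt36 or the day 14 array of wt22 (adjusted p up to 0.1).

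The largest falls by day 14 were those of NUF2, CCNA2 and ANLN in SaOS-2 and of NUF2, HMMR and TTK in Sa/CD99. NUF2, a subunit of the NDC80 complex that grips microtubules, read 8.72 and 8.87 at day 0, 8.33 and 8.45 at day 7, and 7.69 and 7.76 at day 14 in SaOS-2. On the clone arrays it read 9.27 and 8.76 at day 0, 8.31 and 8.75 at day 7, and 7.29 and 7.84 at day 14. All 4 day 14 arrays were below all 8 others. At day 14 NUF2 was 2.1-fold lower (log2 -1.07, SE 0.22, adjusted p = 0.00835) in SaOS-2 and 2.72-fold lower (log2 -1.45, SE 0.22, adjusted p = 0.00202) in Sa/CD99, the first lost at an adjusted p of up to 0.065 without SaOS-2 day 0 replicate 2, day 14 replicate 1 or day 14 replicate 2. CCNA2, cyclin A2, read 9.63 and 9.95 at day 0, 9.20 and 9.13 at day 7, and 8.85 and 8.76 at day 14 in SaOS-2. With the clones it read 9.65 and 9.69 at day 0, 8.89 and 9.29 at day 7, and 8.68 and 8.81 at day 14. Its days formed 3 separate steps over the 12 arrays, day 0 highest and day 14 lowest, and the fall was 1.98-fold and 1.9-fold (adjusted p = 0.00222 and 0.00241). ANLN, the anillin of the contractile ring, read 10.12 and 10.38 at day 0, 9.91 and 9.83 at day 7, and 9.28 and 9.28 at day 14 in SaOS-2. In Sa/CD99 ANLN read 10.55 and 10.27 at day 0, 9.44 and 9.96 at day 7, and 8.85 and 9.39 at day 14. It too stepped down at each day without overlap, 1.96-fold by day 14 in SaOS-2 and 2.45-fold in Sa/CD99, the SaOS-2 call lost at an adjusted p of up to 0.0798 without the same 3 arrays as for NUF2. ECT2, the exchange factor that activates RhoA at the cleavage furrow, fell 2.5-fold and TOP2A, the topoisomerase that untangles sister chromatids, 2.03-fold in Sa/CD99. TOP2A read 11.38 and 11.38 at day 0, 11.02 and 11.33 at day 7, and 10.64 and 10.61 at day 14 in SaOS-2 and 11.61 and 11.32 at day 0, 11.09 and 11.30 at day 7, and 10.26 and 10.62 at day 14 in Sa/CD99, with every day 14 array below every earlier one. RACGAP1, the cytokinesis member with the highest signal, read 11.26 and 11.30 at day 0, 10.70 and 10.71 at day 7, and 10.97 and 10.99 at day 14 in SaOS-2. Its clone values were 11.29 and 11.27 at day 0, 10.70 and 11.003 at day 7, and 11.04 and 11.06 at day 14. RACGAP1 was lower than at day 0 on every later array, with differences at day 14 of -0.30 and -0.23 that did not reach 1.5-fold.

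SPC25 and KIF23 were low from day 7 on. SPC25 read 8.66 and 8.75 at day 0, 7.83 and 7.75 at day 7, and 7.93 and 8.05 at day 14 in SaOS-2. The clones gave 8.67 and 8.83 at day 0, 7.496 and 8.03 at day 7, and 7.72 and 8.25 at day 14. Every later array was below every day 0 array, and days 7 and 14 overlapped. By day 7 SPC25 was 1.98-fold lower (log2 -0.98, SE 0.20, adjusted p = 0.00595) in Sa/CD99 and 1.89-fold lower (log2 -0.92, SE 0.20, adjusted p = 0.00695) in SaOS-2. KIF23, a kinesin of the central spindle, read 9.12 and 9.22 at day 0, 8.44 and 8.46 at day 7, and 8.48 and 8.21 at day 14 in SaOS-2. Its Sa/CD99 values were 9.55 and 9.09 at day 0, 7.99 and 8.69 at day 7, and 8.21 and 8.30 at day 14. Days 7 and 14 again overlapped below day 0, and at day 7 KIF23 was 1.98-fold lower (log2 -0.98, SE 0.22, adjusted p = 0.00922) in Sa/CD99. KIF2C, the microtubule-depolymerising kinesin MCAK and the kinesin with the highest signal, read 11.57 and 11.47 at day 0, 10.92 and 10.89 at day 7, and 11.16 and 11.12 at day 14 in SaOS-2. Over the clone arrays KIF2C read 11.47 and 11.58 at day 0, 10.89 and 11.10 at day 7, and 11.24 and 11.21 at day 14. Its day 7 arrays were the lowest 4, 1.53-fold below day 0 in SaOS-2, a call, and 1.45-fold in Sa/CD99, not a call.

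Between day 7 and day 14, a comparison that also crosses the difference in the labelling controls, some members fell and most were not called. In SaOS-2 8 of 43 fell (18.6%), where 18.2% of all tested probe sets did, and 0 rose, where 4.75% did. In Sa/CD99 9 of 43 fell (20.9%), where 15.6% did, and 1 rose, PLK1, where 2.98% did. These shares of lower calls are near the background. The SaOS-2 count was 9 with the clone as a replicate block, through ECT2, and 4 or 5 without 1 of the 4 arrays compared (5 without day 7 replicate 1, 4 without day 7 replicate 2, 4 without day 14 replicate 1, 5 without day 14 replicate 2), while 1 member was called higher without day 7 replicate 2. In Sa/CD99 it was 5 without the day 14 array of clone wt22 and 2 on its 4 arrays alone, and 2 members were called higher without the day 7 array of clone wt36. The genes that fell in both lines were TTK, CDK1, CENPE, CENPF, NUF2, HMMR and ASPM, 87.5% of the SaOS-2 list and 77.8% of the Sa/CD99 list. Over all tested probe sets, neither the overlap of the lines nor the share called in the fits on fewer arrays was counted. CENPE entered the test through its day 7 arrays, so its fall from day 7 is a description and no support for these counts. To the shared genes SaOS-2 added ANLN, and Sa/CD99 added ECT2 and TOP2A. ECT2 kept that call in 4 of 12 fits that left out 1 array, with an adjusted p of up to 0.193, and TOP2A lost it without the day 14 array of wt22. Of the other 35 members, 23 had second-week differences above 0 in both lines, with medians of 0.20 in SaOS-2 and 0.14 in Sa/CD99. That split was made on these values and is a description. The SaOS-2 calls of NUF2 and ANLN here were kept in 6 of 12 fits that left out 1 array, with adjusted p values of up to 0.143 and 0.153.

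HMMR showed this course most plainly. It read 9.52 and 9.52 at day 0, 9.92 and 9.93 at day 7, and 8.82 and 8.98 at day 14 in SaOS-2. On the clone arrays HMMR read 9.82 and 9.45 at day 0, 9.71 and 9.75 at day 7, and 7.99 and 8.51 at day 14. All day 14 arrays were below all others, and within day 14 both clones were below both parental arrays. From day 7 it fell 2.03-fold in SaOS-2 (log2 -1.02, SE 0.17, adjusted p = 0.00235) and 2.79-fold in Sa/CD99 (log2 -1.48, SE 0.17, adjusted p = 0.000601), and a second probe set of HMMR gave -1.19 and -1.50. ASPM, which focuses spindle poles and when mutated causes microcephaly, read 8.75 and 8.67 at day 0, 9.21 and 9.24 at day 7, and 7.98 and 8.17 at day 14 in SaOS-2. The clones read 9.47 and 8.71 at day 0, 9.19 and 9.02 at day 7, and 7.51 and 8.16 at day 14. Its day 14 arrays were the lowest 4, and the second-week fall was 2.21-fold and 2.41-fold. Of the other probe sets for ASPM, which are dim and were not tested, 1 gave 0.21 and 0.32 for the same comparison, so the course rests on the probe set used here. CENPF, a large protein of the outer kinetochore, read 9.54 and 9.42 at day 0, 9.79 and 9.83 at day 7, and 8.78 and 8.66 at day 14 in SaOS-2. For Sa/CD99 it read 10.002 and 9.68 at day 0, 9.77 and 9.46 at day 7, and 8.57 and 9.16 at day 14. Every day 14 array was below every earlier one, and the fall from day 7 was 2.14-fold in SaOS-2 and 1.68-fold in Sa/CD99, the latter lost without the day 7 or the day 14 array of clone wt22 (adjusted p up to 0.0877). CENPE fell 2.81-fold and 2.44-fold from its day 7 peak. Set against day 0, CENPE at day 14 differed by -0.02 in SaOS-2, and its call in Sa/CD99 was kept in 2 of 12 fits that left out 1 array, with an adjusted p of up to 0.25.

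TTK read 8.62 and 8.72 at day 0, 8.93 and 8.98 at day 7, and 8.10 and 8.03 at day 14 in SaOS-2. In the clones it read 9.04 and 8.36 at day 0, 8.54 and 8.74 at day 7, and 7.01 and 7.70 at day 14. The day 14 arrays were below all others, with clone wt22 lowest. From day 7 to day 14 the fall was 2.43-fold in Sa/CD99 (log2 -1.28, SE 0.24, adjusted p = 0.00487) and 1.86-fold in SaOS-2, the latter lost at an adjusted p of up to 0.0762 without any 1 of the 4 SaOS-2 arrays compared. CDK1 fell 1.65-fold in SaOS-2, lost without day 7 replicate 1, day 7 replicate 2 or day 14 replicate 1 (adjusted p up to 0.111), and 2.28-fold in Sa/CD99. Its 2 other tested probe sets gave -1.09 and -1.20 in SaOS-2 and -1.18 and -1.35 in Sa/CD99. For day 14 against day 0 in SaOS-2 both were called lower (-0.65 and -0.60), while the probe set used was not called (-0.57). Over all members, 18 had another tested probe set, and for the 44 pairs of a called comparison and such a probe set the sign was the same in 44 and the call in 37.

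**Figure D5:**
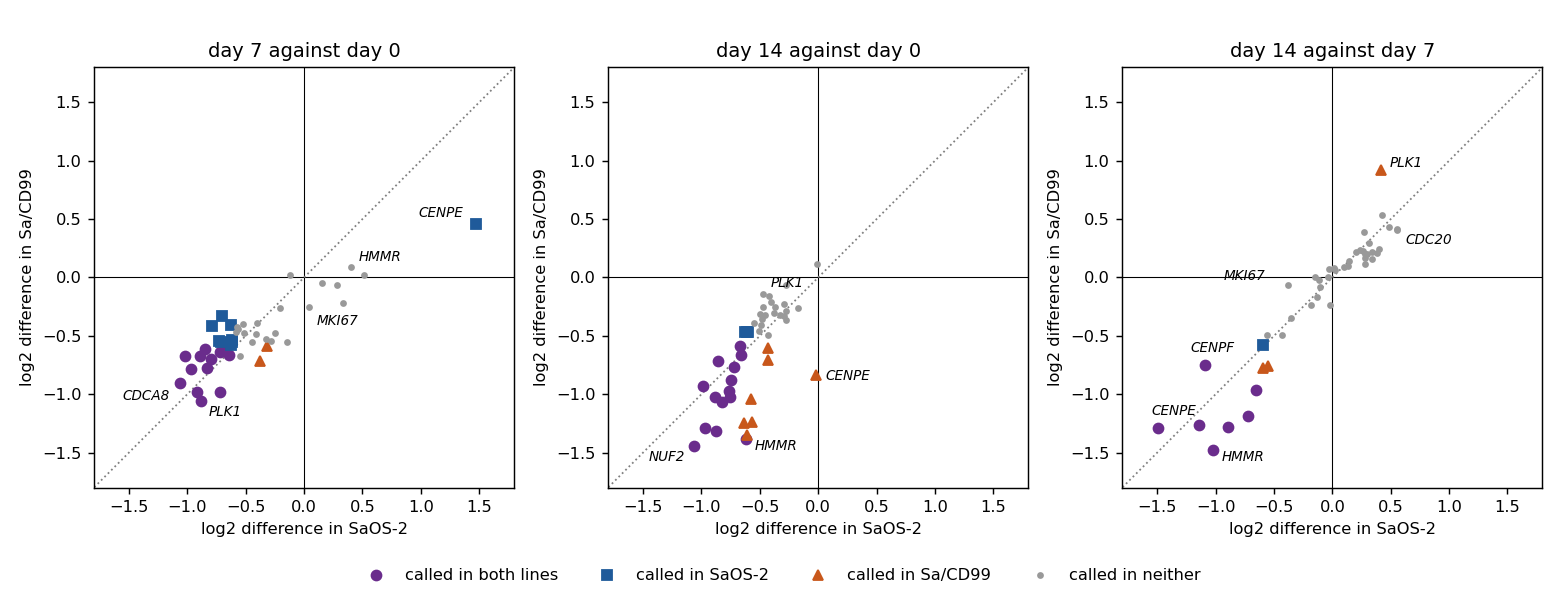
Log2 difference between days for the 45 genes in Sa/CD99 (y) against SaOS-2 (x), 1 point per gene, for days 7 and 0, 14 and 0, and 14 and 7; the 2 axes share no arrays, and the dotted line marks equal change. Most points lie at the lower left in the first panel and in the second, CENPE stands alone at 1.48 and 0.45 in the first, and in the third PLK1 lies at 0.41 and 0.92 while HMMR and CENPE lie below -1 on both axes.

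CCNB1, TPX2, FOXM1, MKI67 and CDCA3 were called in no comparison through the probe set used. Another tested probe set of CDCA3 was called lower at day 7 in both lines (log2 -0.86 in SaOS-2 and -0.72 in Sa/CD99), and another of MKI67 was called lower at day 14 in SaOS-2 (-0.69). CCNB1, cyclin B1, read 11.04 and 11.06 at day 0, 10.52 and 10.44 at day 7, and 10.75 and 10.77 at day 14 in SaOS-2. Sa/CD99 arrays read 11.18 and 11.05 at day 0, 10.53 and 10.81 at day 7, and 10.86 and 10.70 at day 14. Day 0 was highest on every array, and the day 7 differences of -0.57 and -0.45 stayed under 1.5-fold. TPX2, the spindle assembly factor with the highest signal, read 11.77 and 11.66 at day 0, 11.38 and 11.24 at day 7, and 11.22 and 11.12 at day 14 in SaOS-2. In Sa/CD99 it read 11.64 and 11.56 at day 0, 11.14 and 11.27 at day 7, and 11.21 and 11.20 at day 14. Its day 0 arrays were above all others, and between day 7 and day 14 it moved by 0.00 in Sa/CD99, the smallest difference there. FOXM1, the factor that activates many of these genes, read 8.92 and 8.96 at day 0, 8.48 and 8.36 at day 7, and 8.63 and 8.50 at day 14 in SaOS-2. Over the clones FOXM1 read 8.79 and 8.75 at day 0, 8.31 and 8.44 at day 7, and 8.58 and 8.46 at day 14. It was highest on the day 0 arrays, with day 7 differences of -0.52 and -0.40. MKI67, the Ki-67 protein of mitotic chromosome surfaces, read 8.96 and 8.99 at day 0, 9.05 and 8.99 at day 7, and 8.66 and 8.62 at day 14 in SaOS-2. The clone values were 8.96 and 8.87 at day 0, 8.77 and 8.55 at day 7, and 8.51 and 8.67 at day 14. MKI67 had the smallest first-week difference of any member in SaOS-2 (0.04), where its 3 other tested probe sets gave -0.29, -0.06 and -0.06. Its day 14 arrays were below its day 0 arrays, with differences of -0.33 and -0.32. CDCA3 read 9.14 and 9.22 at day 0, 8.64 and 8.70 at day 7, and 9.06 and 8.96 at day 14 in SaOS-2 and 9.08 and 9.23 at day 0, 8.67 and 8.69 at day 7, and 8.89 and 8.90 at day 14 in Sa/CD99, lowest at day 7 in both. CDC25B, a phosphatase that activates CDK1, failed the filter on variation and read 10.29 and 10.25 at day 0, 10.18 and 10.12 at day 7, and 10.26 and 10.24 at day 14 in SaOS-2. Its clone values were 9.97 and 10.43 at day 0, 9.87 and 10.57 at day 7, and 10.08 and 10.55 at day 14. It moved least over days, by -0.01 between days 0 and 14 in SaOS-2, and clone wt22 was below clone wt36 on each day. PRC1, which bundles the central spindle, fell at both days in both lines, from -0.59 to -0.66 in Sa/CD99.

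The other members followed one of these courses. MAD2L1, the checkpoint protein that binds CDC20, fell at both days in both lines, by day 14 1.67-fold in SaOS-2 and 1.84-fold in Sa/CD99. Leaving out 1 array kept its SaOS-2 calls in 8 of 12 fits at day 7 and 6 of 12 at day 14 (adjusted p up to 0.158 and 0.18), and its Sa/CD99 calls in 4 and 10 of 12 (up to 0.257 and 0.0852). BUB1, a checkpoint kinase, fell 1.81-fold and 1.64-fold by day 14, and KIF11, the kinesin that separates spindle poles, 1.85-fold and 2.03-fold. SPC24, the partner of SPC25, fell at day 7 (1.78-fold and 1.71-fold). Called lower at day 7 in SaOS-2 but not in Sa/CD99 were CCNB2, cyclin B2 (log2 -0.63 and -0.41), CDC25C, a phosphatase that activates CDK1 (-0.70 and -0.33), and KIF20A, a kinesin of cytokinesis (-0.78 and -0.42). Another tested probe set of CDC25C was called lower in both lines, at -0.84 and -0.82. BUB1 (-0.73 and -0.55) and CCNA2 (-0.63 and -0.58) were also called at day 7 in SaOS-2 and not in Sa/CD99. For each, another tested probe set was called lower in Sa/CD99 (-0.66 for BUB1 and -0.85 for CCNA2). In SaOS-2 that of CCNA2 was called (-0.62) and that of BUB1 was not (-0.54). At day 14 the kinesin KIF4A was called in SaOS-2 (-0.62 against -0.46), and NDC80, DLGAP5 and NUSAP1, of which the last 2 bind spindle microtubules, were called in Sa/CD99 (-0.70, -1.04 and -0.61, against -0.43, -0.58 and -0.43 in SaOS-2). None of these genes passed the test of a difference between the lines in its change. CENPA, the histone of centromeres, was not called, with day 14 values of -0.43 and -0.49.

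The 2 clones were not alike through the time course. Averaged over the days, 0 of 43 members were called between wt22 and wt36, where 5.78% of all tested probe sets were. An unadjusted limma p was below 0.05 for 2 members, without a share over all tested probe sets. The median was -0.05 as log2 of wt22 minus wt36. SPC25 passed the adjusted p but not the fold (-0.41, adjusted p = 0.0117), CDC25B, not tested in the filtered fit, had the widest difference, log2 -0.54 (95% interval -0.72 to -0.36), and PRC1 the smallest (-0.00). By day the difference turned over: the median over the 45 genes was 0.08 at day 0, -0.20 at day 7 and -0.04 at day 14, and 19 genes were higher in wt22 at day 0 and lower at day 14. From day 0 to day 14 TTK moved by -2.03 in wt22 and -0.67 in wt36. NUF2 moved by -1.97 and -0.92, ASPM by -1.95 and -0.55, and ECT2 by -1.92 and -0.71. HMMR moved by -1.83 and -0.94, CDK1 by -1.73 and -0.75, and CENPE by -1.55 and -0.11. The medians of that change over the 45 genes, -0.47 in wt22 and -0.44 in wt36, were close to each other, and with 1 array per clone and day these values have no replicate check. Between the 2 parental arrays of a day no member differed by 1.5-fold, while between the clones 6 did at day 0, 2 at day 7 and 4 at day 14. This spread between the clones was not particular to the members. At days 0, 7 and 14 the SD of the clone difference was 0.39, 0.41 and 0.42 over all tested probe sets and 0.29, 0.26 and 0.27 over the members. How many of all tested probe sets differed by 1.5-fold, or changed sign from day 0 to day 14, was not counted.

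Other genes of mitosis, of DNA replication and of mitotic transcription were read in the same fit. Of 63 tested genes in a list of other mitotic genes, 20 were lower at day 7 in SaOS-2 and 22 in Sa/CD99, and 24 and 31 were lower at day 14. These are 31.7% and 34.9%, then 38.1% and 49.2%, of the list, where 8.63%, 7.78%, 8.86% and 13.0% of all tested probe sets were lower. KNL1, the kinetochore scaffold, fell most by day 14, by 1.22 on the log2 scale in SaOS-2 and by 1.55 in Sa/CD99, and DEPDC1 and PLK4, the kinase of centriole duplication, followed with log2 differences of -1.15 and -1.05 in SaOS-2 and -1.40 and -1.28 in Sa/CD99. KIF18A, a kinesin that limits kinetochore microtubule length, went the way of CENPE: it was 2.19-fold higher at day 7 than at day 0 in SaOS-2 and then fell 3.12-fold in SaOS-2 and 4.02-fold in Sa/CD99. The condensin subunit SMC4 fell in the second week as well, 2.17-fold in SaOS-2 and 2.08-fold in Sa/CD99. TROAP, FAM83D and SPAG5, spindle-associated proteins, were the largest first-week falls of this list in SaOS-2 (log2 -1.15, -1.10 and -0.99), and CDCA2, CENPN, OIP5 and CENPW in Sa/CD99 (log2 -0.93, -0.89, -0.82 and -0.82). SKA1, a kinetochore protein, was the 1 gene of this list called between the lines, lower in Sa/CD99 at day 7 (log2 -0.71, adjusted p = 0.0434). That is 1.59% of the 63 tested, near the 1.81% of all tested probe sets called between the lines at day 7.

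In the list of DNA replication and S phase genes 28 were tested, of which 5 fell at day 7 and 3 at day 14 in SaOS-2, and 3 and 4 in Sa/CD99. These are 17.9%, 10.7%, 10.7% and 14.3% of the list beside 8.63%, 8.86%, 7.78% and 13.0% of all tested probe sets, so all but the first are near the background. MCM6, a helicase subunit, rose in SaOS-2 (log2 0.72 at day 7 and 0.62 at day 14). Median differences at day 14 over the 47 measured genes were -0.06 and -0.12. TK1, thymidine kinase, fell most at day 7 (log2 -1.03 in SaOS-2 and -0.95 in Sa/CD99). ORC6 and CDC6, which license replication origins, fell at day 14 in both lines (log2 -0.68 and -0.65 in SaOS-2, -0.86 and -0.69 in Sa/CD99). CDT1, another licensing factor, rose from day 7 to day 14 (log2 0.88 and 0.70). Whether the lists differ from each other was not tested.

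Among regulators of mitotic transcription, 17 of 34 measured genes were tested, and 3 fell and 1 rose by day 7 in each line, 4 and 1 by day 14. The lower calls are 17.6% of the list at day 7, beside 8.63% of all tested probe sets in SaOS-2 and 7.78% in Sa/CD99, and 23.5% at day 14, beside 8.86% and 13.0%. The 1 higher call is 1 of 17, where 12.8% and 10.4% of all tested probe sets were higher at day 7 and 6.03% and 6.39% at day 14. MYBL2, the activator that works with FOXM1, read 9.75 and 9.58 at day 0, 8.77 and 8.73 at day 7, and 9.15 and 8.97 at day 14 in SaOS-2. On clone arrays MYBL2 read 9.54 and 9.49 at day 0, 8.69 and 8.75 at day 7, and 9.14 and 9.02 at day 14. It was lowest on the 4 day 7 arrays, 1.88-fold below day 0 in SaOS-2 and 1.74-fold in Sa/CD99, the course of PLK1 and CDC20. CDKN1C, the CDK inhibitor p57, read 6.79 and 6.69 at day 0, 7.39 and 7.40 at day 7, and 8.43 and 8.46 at day 14 in SaOS-2. Its Sa/CD99 values were 5.97 and 5.64 at day 0, 6.74 and 6.25 at day 7, and 7.29 and 7.63 at day 14. It was called higher at each step in both lines, 3.27-fold by day 14 in SaOS-2. Both Sa/CD99 arrays of day 0 and that of wt36 at day 7 lie below the signal minimum (log2 6.644), so no fold is given against them. For the same comparison its 4 other probe sets, none of them tested, gave log2 1.40, 1.47, 1.17 and -0.18 for SaOS-2. CDKN1C was called lower in Sa/CD99 on each day, by log2 -0.99 at day 14 (adjusted p = 0.0306). CDKN1A, the CDK inhibitor p21, read 9.03 and 9.03 at day 0, 9.82 and 9.82 at day 7, and 9.97 and 9.93 at day 14 in SaOS-2. For the clones it read 9.57 and 9.44 at day 0, 10.66 and 9.37 at day 7, and 10.70 and 9.51 at day 14. Clone wt22 was above clone wt36 on each day, by 0.87 on average (adjusted p = 0.01). The atypical E2F repressors E2F7 and E2F8 fell at both days in SaOS-2 (log2 -0.68 and -0.74 at day 7, -0.70 and -0.77 at day 14). NFYB, a subunit of the factor that binds CCAAT, fell from day 7 to day 14 (log2 -0.95 and -1.12). The probe sets with the highest signal for E2F1, CDKN1B and RB1 failed the filter on variation, at 8.24 to 8.63, 9.67 to 10.05 and 6.80 to 7.30. Another probe set of RB1, not tested, read 2.51 to 2.92, below the signal minimum, so the RB1 probe sets differ in level. A second probe set of E2F1 was tested. It was called higher from day 7 to day 14 in Sa/CD99 (log2 0.59, limma adjusted p = 0.00721) and not in SaOS-2 (0.26). Its day 7 differences from day 0, -0.51 in Sa/CD99 and -0.24 in SaOS-2, were not called.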

How the data were processed

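Total RNA of 12 samples was hybridised to Affymetrix HG-U133 Plus 2.0 arrays, and the authors deposited 1 table of log2 signals for 54675 probe sets, made per the labels with affy and RMA (background correction, quantile normalization and summary of probes on all arrays together), so the values are relative between arrays and a change shared by all genes would be removed. Genes were named from the platform annotation supplied with the table, and the other probe sets were left unnamed. After leaving out 62 control probe sets, those at a signal of 100 or less on at least 9 of 12 arrays were removed (18677 kept), then those with an interquartile range at or below the median (12894 tested). limma 3.58.1 in R 4.3.3 was fitted to the 6 groups with 2 arrays each (residual df 6), with 12 comparisons, Benjamini-Hochberg adjustment over the 12894 probe sets, and a call at an adjusted p of at most 0.05 and at least 1.5-fold. The scripts were tested on simulated data. The number of arrays limits the precision. The 2 members that failed a filter have estimates from a fit without filters. The clones were also compared with the day as a block.

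Named members were, by a fixed rule, the one with the highest signal in each role, the 3 called with the largest difference in each comparison, the one with the smallest difference, and CDK1. The members and lists were chosen with earlier results of these data known. Deviations of the same clone from its group mean correlated between days (r = 0.32 to 0.63 over 12894 probe sets), so the clone number pairs the Sa/CD99 arrays, while the SaOS-2 numbers did not (-0.05 to 0.24). Alternatives were other filters, probe sets, normalization, array weights, replicate blocks, fits on the arrays compared alone, and leaving out each array. Promoter windows were from RefSeq, GRCh38.p14.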

Additional observations from a re-analysis of the deposited data

Results flagged for a closer look

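Through the probe set used, CENPF and MKI67 moved in opposite directions in the lines between days 0 and 7, with both SaOS-2 arrays of day 7 above both of day 0 and each clone lower at day 7 than at its own day 0. The change in Sa/CD99 minus that in SaOS-2 was -0.55 on the log2 scale for CENPF and -0.30 for MKI67, and limma's interaction test did not pass for either (adjusted p = 0.999 for both). The 3 other tested probe sets of MKI67 were lower at day 7 in SaOS-2 (-0.29, -0.06 and -0.06) and in Sa/CD99 (-0.53, -0.21 and -0.27), so for MKI67 the opposite directions do not hold on them.

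The probe sets for poly-A labelling controls, which no comparison used, averaged 4.06 log2 units higher on the arrays of days 0 and 14 than on those of day 7.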

How the results depend on the processing

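All 93 called member comparisons kept their direction in the 17 or 18 alternative fits tallied for each, and 52 were called in all of those. The tally covered the signal filter alone, quantile normalization, limma's trend and robust options, array weights and a random replicate block. It also covered leaving out each array and, for day 14 against day 0, leaving out the day 7 arrays. Averaged or second probe sets, fits on the arrays compared alone and the clone blocks were not part of it. Averaging all probe sets of a member gave 13 lower calls for SaOS-2 at day 7 in place of 21. The second probe set gave 1 higher call in SaOS-2 between days 7 and 14 in place of 0, and quantile normalization of the tested probe sets gave 3 in SaOS-2 and 2 in Sa/CD99. Fits on the arrays of the groups compared alone gave 1, 0 and 2 lower calls and 0 higher calls in Sa/CD99 (day 7 against 0, 14 against 0, 14 against 7, and 14 against 7). The clones of a day differed more than the parental arrays of a day. The SD of that difference over all tested probe sets was 0.39 to 0.42 for the clones and 0.12 to 0.14 for SaOS-2. Without the fold minimum, lower calls were 34 in SaOS-2 at day 14, and 30 and 36 in Sa/CD99 at days 7 and 14, and higher calls between days 7 and 14 were 10 in SaOS-2 and 6 in Sa/CD99. For this and the other fits counted here, the share of all tested probe sets called was not counted. These counts therefore cannot be set against a background. For these changes in the counts the cause was not tested. With the clone as a replicate block, SaOS-2 had 9 lower calls between days 7 and 14 through ECT2, and the block changed no other call; a block on both lines gave 14 lower calls in Sa/CD99 at day 7.

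Leaving out 1 array, where a lone array was assumed to vary like the other groups, gave 0 to 1 calls between the lines at day 7 and 0 to 1 at day 14. In SaOS-2 it gave 18 to 21 lower calls for day 7 against 0, 6 to 19 for day 14 against 0 and 4 to 9 for day 14 against 7, with 0 to 1 higher. In Sa/CD99 it gave 9 to 22, 15 to 21 and 5 to 12, with 1 to 2 higher. Shares of all tested probe sets called were not counted for these fits. INCENP and CENPE lie near the signal minimum, which limits what their values show.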
